A study of Homo sapiens with 4 samples.

Results

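The 42 genes of mitosis, condensin and cohesin described here were followed in ATAC-seq data from Kasumi-1 cells that lost SETD8. They were taken by gene symbol from the annotation of a deposited peak table, and each gene was represented by its promoter peak with the highest mean level. Of the 42 genes, 32 had a peak under their own symbol and 31 had a promoter peak, among 10187 genes with a promoter peak and 20556 peaks in all. Together they held 43 peaks: the 31 strongest promoter peaks, 4 further promoter peaks and 8 peaks elsewhere.

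ATAC-seq uses a transposase that cuts open chromatin, so that reads in a peak measure accessibility. Kasumi-1 is an acute myeloid leukaemia line with the t(8;21) translocation. The 2 groups were cells labelled WT that received sgNT, a guide named as the control, and cells labelled SETD8 knockout, made with CRISPR/Cas9, with 2 libraries each from 50000 cells per library. All 4 libraries come from the same line, and the group labels differ only in the genotype and the guide. Each group has a library whose title ends in #2, called replicate 2 here. Whether #2 stands for another guide, culture or batch is not stated in the sources used here. Neither the guide sequence, the time after editing, nor whether the knockout cells were a pool or a clone is given in the sources used here, and nothing says that the libraries of a group came from separate cultures.

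SETD8, now named KMT5A, places a single methyl group on lysine 20 of histone H4, a mark that increases towards mitosis. The enzyme is itself tied to the mitotic machinery, being phosphorylated by CDK1 with cyclin B and degraded through the anaphase-promoting complex, and HEAT-repeat subunits of condensin II bind the mark it makes. Condensins compact chromosomes, cohesin holds sister chromatids together until separase cuts it, and the spindle checkpoint delays that cut until all chromosomes are attached. Many of these genes are transcribed late in the cell cycle through promoters that carry CCAAT boxes, bound by NF-Y, and a cell cycle homology region, bound by the MMB and DREAM complexes.

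Promoter letters are shown first because many of these genes, though not all, carry them. Each line gives the 250 bases before the RefSeq start site (GRCh38.p14), 5′ to 3′ on the strand of the gene. Capitals mark CCAAT or its reverse complement ATTGG, and the cell cycle homology region letters TTTGAA (or its reverse complement TTCAAA) and TTTAAA. The first 4 are checkpoint, anaphase and cyclin genes with fold changes below the median of all peaks in both tables, and BUB1 among them has CCAAT only. KIF11 has both kinds of letters and was the least lowered gene of its group. NIPBL, the loader of cohesin, has neither.
PTTG1, chr5:160421605-160421854, plus strand: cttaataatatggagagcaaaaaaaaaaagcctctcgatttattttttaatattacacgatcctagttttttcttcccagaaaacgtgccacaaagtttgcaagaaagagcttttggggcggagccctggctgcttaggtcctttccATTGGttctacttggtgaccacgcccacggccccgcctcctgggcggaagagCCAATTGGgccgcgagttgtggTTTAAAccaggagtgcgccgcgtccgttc
CCNB2, chr15:59104896-59105145, plus strand: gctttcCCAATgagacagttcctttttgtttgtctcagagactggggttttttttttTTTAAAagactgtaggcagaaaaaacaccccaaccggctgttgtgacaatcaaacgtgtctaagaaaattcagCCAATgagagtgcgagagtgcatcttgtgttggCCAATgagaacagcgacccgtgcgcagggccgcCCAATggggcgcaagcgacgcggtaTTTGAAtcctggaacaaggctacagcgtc
CDC20, chr1:43358731-43358980, plus strand: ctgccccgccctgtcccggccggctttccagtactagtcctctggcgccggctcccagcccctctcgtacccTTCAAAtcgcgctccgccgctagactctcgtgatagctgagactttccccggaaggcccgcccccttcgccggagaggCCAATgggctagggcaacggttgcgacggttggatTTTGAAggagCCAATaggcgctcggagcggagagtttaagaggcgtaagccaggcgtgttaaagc
BUB1, chr2:110678064-110678313, minus strand: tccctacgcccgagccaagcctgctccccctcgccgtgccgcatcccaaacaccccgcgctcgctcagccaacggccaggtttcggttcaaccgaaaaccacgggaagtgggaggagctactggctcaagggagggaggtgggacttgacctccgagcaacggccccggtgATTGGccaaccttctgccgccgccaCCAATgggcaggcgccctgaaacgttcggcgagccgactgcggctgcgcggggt
KIF11, chr10:92592880-92593129, plus strand: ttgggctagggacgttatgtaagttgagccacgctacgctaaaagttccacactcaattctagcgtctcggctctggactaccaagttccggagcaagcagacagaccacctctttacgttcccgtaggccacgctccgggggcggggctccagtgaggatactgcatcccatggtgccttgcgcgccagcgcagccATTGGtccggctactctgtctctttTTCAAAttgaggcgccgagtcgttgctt
NIPBL, chr5:36876519-36876768, plus strand: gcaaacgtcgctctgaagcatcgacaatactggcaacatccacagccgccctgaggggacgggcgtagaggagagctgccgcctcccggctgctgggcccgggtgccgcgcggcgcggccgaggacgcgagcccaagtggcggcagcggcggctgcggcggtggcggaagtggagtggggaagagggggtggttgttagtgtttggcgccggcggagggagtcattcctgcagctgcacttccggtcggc

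Both kinds of letters were common in the members. RefSeq windows from 250 bases before to 50 after the start site were found for 36 of the 42 genes, and not for BIRC5, TTK, NCAPH2, BUB3, RAD21 and AURKA. In 26 of them the start site lay under the strongest promoter peak of the gene. CCAAT on either strand was found in 21 of these 26 windows (80.8%), against 39.4% of 6272 windows of all genes chosen the same way and 35.7% of 27305 windows in all. TTTGAA on either strand or TTTAAA, which reads the same on both, was found in 19 of 26 (73.1%), against 13.7% and 24.1%. Both were present in 15 of 26 (57.7%), against 6.30% and 9.50%. TTCCCGC or TTGGCGC on either strand, letters like those bound by E2F, were found in 5 of 26 (19.2%), against 16.2% and 9.27%, and ATTGG and TTGGCGC can share letters. Members' windows with their start site under a peak had a median GC content of 62.7%, against 66.0% for all genes so chosen. A match describes the letters and is not evidence of binding.

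**Figure D1:**
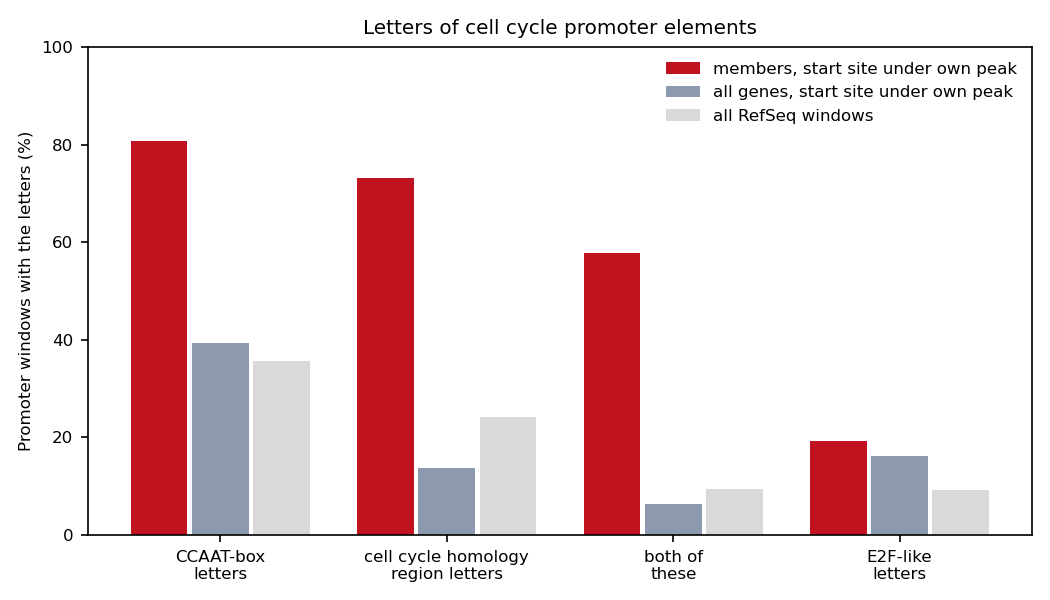
Share of promoter windows (%) that hold the CCAAT letters, the cell cycle homology region letters TTTGAA or TTTAAA, both, or the E2F-like letters TTCCCGC or TTGGCGC. Bars are 26 member windows with the start site under the gene's own peak, 6272 such windows of all genes and all 27305 RefSeq windows; the member bars are 80.8%, 73.1%, 57.7% and 19.2%.

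The position of the letters was also alike in part of the members. The homology region letters began within 50 bases of the start site in 15 of the 26 members (57.7%), against 3.78% of the 6272 windows. In 12 of the 26 (46.2%, against 1.39%) they followed a CCAAT box after a gap of 10 to 40 bases. Both distances were chosen after the sites had been seen. These 12 were PTTG1, ESPL1, CCNB1, CCNB2, PLK1, INCENP, CENPF, KIF11, PRC1, ECT2, CDC20 and CDK1. The pair could lie anywhere in the window, so its place was not alike in all of them. Counted from the start site, CCAAT and the homology region letters began at 12 and 40 in CENPF. They began at -2 and 34 in ECT2, and at -150 and -131 in CDK1. The 7 members of the 26 without the homology region letters were the cohesin genes STAG1, STAG2, NIPBL and WAPL, and BUB1, CCNA2 and AURKB. Only TTTGAA and TTTAAA were searched, so the absence of these letters does not show that the element is absent. The 5 without CCAAT were SMC2, SMC3, NCAPG2, NIPBL and CENPE.

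The fold changes come from 2 tables that the authors deposited. The first compares treated with control cells without naming libraries, and the second compares the knockout and control libraries of replicate 2, so that each of its values rests on 1 library per group. Whether the tables share libraries is not stated, so their values stand side by side and are not support for each other. A level is the log2 of normalised reads in a peak, and a fold change is knockout over control on the log2 scale. Levels were lower in the knockout at most peaks, with a median fold change over all peaks of -0.87 (first table) and -1.23 (second table). Reads in peaks summed to 2091322 for the knockout and 5345251 for the control library of replicate 2, and a lower accessibility and a difference of scaling between libraries cannot be told apart. No peak passed the authors' test, with a smallest adjusted p of 0.731 and 0.578 and with 329 and 19 peaks at an unadjusted p under 0.05, and the test of the second table had no replicates. In bulk chromatin, fewer cells in a cycle phase and less open chromatin per cell cannot be told apart either. Of 10 markers of myeloid progenitors and Kasumi-1 chosen to check the label, 7 had a promoter peak and MPO, CD33 and RUNX1T1 had none, and of 8 markers of other cell types EPCAM, COL1A1 and PECAM1 had one. At the KMT5A promoter, on chromosome 12 at 123383664 to 123384357, 251 knockout and 685 normalised control reads were recovered for replicate 2. The authors' deposited tables give it fold changes of -0.82 and -1.45. Promoter accessibility does not test whether the gene was cut.

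All 31 members had a negative fold change in both deposited tables, as had 97.4% of all promoters in the first and 100% in the second after rounding. The median over members was -0.96 in the first, against -0.93 over the promoters of all genes, and -1.42 in the second, against -1.26. The members ranged from -1.66 at TTK to -0.42 at AURKB in the authors' first deposited table, and from -1.69 at CCNB2 to -1.03 at SMC3 in the second. No member had an adjusted p under 0.05 in the authors' deposited tables (background 0% of peaks in each), and none had an unadjusted p under 0.05 (background 0.697% and 0.0241% of promoters). Lower by at least 1 were 15 of 31 members (48.4%) in the first table, against 43.3% of all promoters and 38.9% of all peaks. In the second all 31 of 31 were, against 83.4% of promoters and 76.1% of peaks. The first of these shares is close to its background. Below the promoter median lay 20 of 31 members (64.5%) in the first table, against 49.3% of all genes, and 22 of 31 (71.0%) in the second, against 48.8%.

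Counting error alone could be given for the second table. Its member peaks held 50 to 474 knockout reads, with a median of 156, and 108 to 1067 normalised control reads. An exact Clopper-Pearson 95% interval of the fold change, which covers counting error only, reached 0.26 to either side at the median member. It lay wholly below the table median in 8 of 31 members (25.8%, background 19.3%): TTK, CDC20, CDK1, CCNB1, CCNB2, AURKB, PRC1 and ECT2. It lay wholly above the median in 0 of 31, against 14.0% of all promoters, and wholly below 0 in 31 of 31, against 99.7%. The share below the median is near its background, and roles were not compared by a test.

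**Figure D2:**
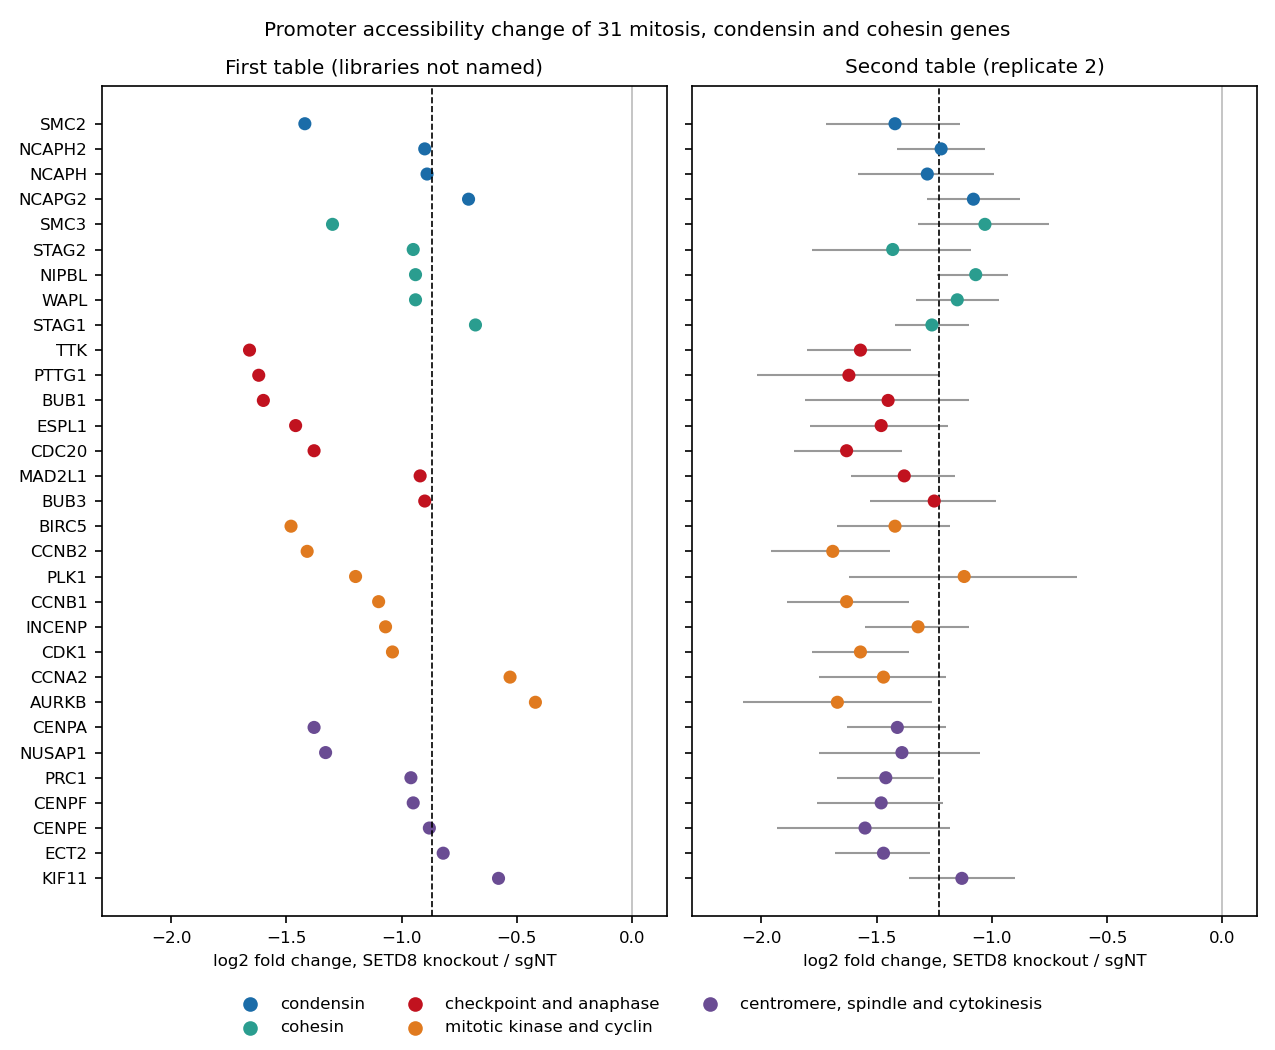
Log2 fold change (knockout over control) of the strongest promoter peak of 31 genes in the first (left) and second (right) deposited table, coloured by role; bars on the right are 95% counting intervals and dashed lines the median of all peaks, -0.87 and -1.23. All points lie below 0, and those of BUB1, TTK, PTTG1, ESPL1 and CDC20, among others, lie left of the dashed line in both panels.

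**Figure D3:**
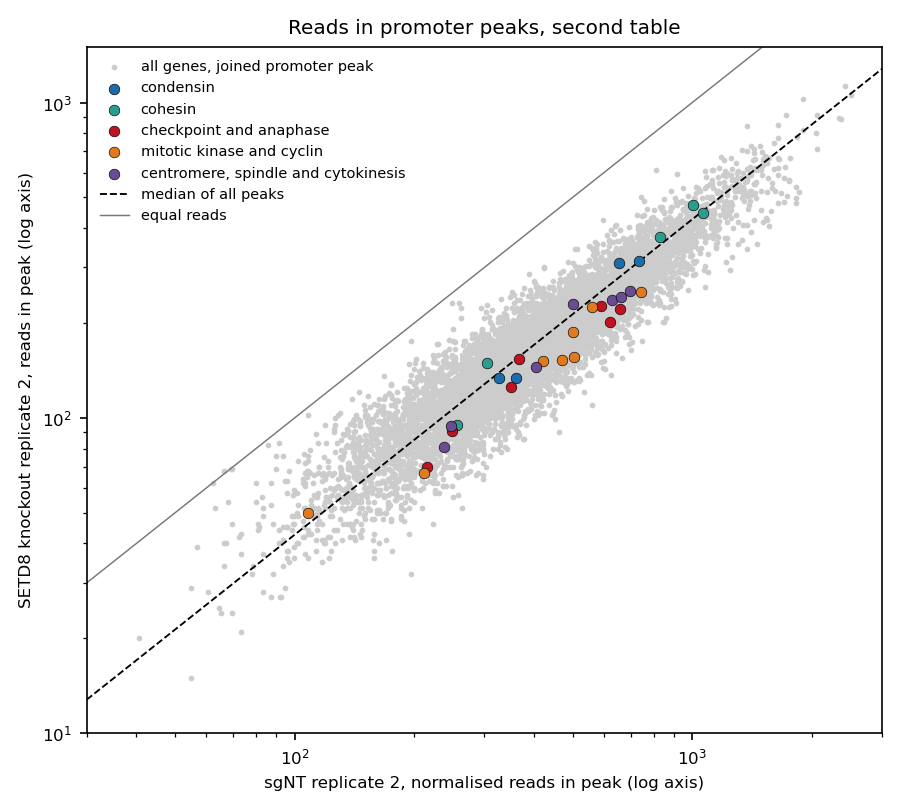
Reads in the joined promoter peak of each gene in the sgNT (x axis, normalised) and SETD8 knockout (y axis) library of replicate 2, on log axes, with members coloured by role and peaks beyond the axis limits not drawn. Every member lies below the line of equal reads, and members lie on or under the dashed line of the median (-1.23) more often than above it.

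The spindle checkpoint and anaphase genes had the lowest median of the 5 roles in the first table, at -1.46 over 7 genes. In the second they stood at -1.48, between the mitotic kinases and cyclins at -1.52 and the centromere, spindle and cytokinesis genes at -1.46. TTK, the MPS1 kinase that starts checkpoint signalling, has its promoter peak on chromosome 6 at 80003777 to 80004970. It held 221 knockout reads and 657 normalised control reads, and its fold changes were -1.66 (p = 0.114, adjusted p = 0.731) and -1.57 (p = 0.254, adjusted p = 0.578, counting interval -1.80 to -1.35) in the authors' deposited tables. Relative to peaks of the same level, TTK stood at -0.71 and -0.29. CDC20, the activator of the anaphase-promoting complex that the checkpoint holds back, held 202 and 622 reads on chromosome 1 at 43358223 to 43359227. Its fold changes in the authors' deposited tables were -1.38 and -1.63 (-1.86 to -1.39). Both genes were among the lower promoters in each table, at percentiles 4.1 and 13.5 for TTK and 12.6 and 9.7 for CDC20. After level adjustment, other peaks within 5 Mb stood at -0.26 and -0.03 around TTK and at 0.18 and 0.06 around CDC20. Relative to them TTK stood at -0.45 and -0.26, and CDC20 at -0.56 and -0.41.

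BUB1, a checkpoint kinase at the kinetochore, had 91 knockout and 249 normalised control reads and gave fold changes of -1.60 and -1.45 in the authors' deposited tables. PTTG1, or securin, which blocks separase until anaphase, had 70 and 215 reads and gave -1.62 and -1.62, and ESPL1, separase itself, had 125 and 350 reads and gave -1.46 and -1.48 in the authors' deposited tables. MAD2L1, which forms the inhibitor of CDC20, had 226 and 588 reads and gave -0.92 and -1.38 in the authors' deposited tables. BUB3, the partner of BUB1 and the highest of this role in both tables, had 154 and 367 reads and gave -0.90 and -1.25. In the second table the counting intervals of BUB1 (-1.81 to -1.10), ESPL1 (-1.79 to -1.19), MAD2L1 (-1.61 to -1.16) and BUB3 (-1.53 to -0.98) overlap and include the median of all peaks.

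The mitotic kinases and cyclins, grouped with the passenger complex partners INCENP and BIRC5, had medians of -1.08 and -1.52 over 8 genes. CCNB2, a mitotic cyclin, had 156 knockout and 505 normalised control reads on chromosome 15 at 59104753 to 59105710. It stood at -1.41 and -1.69 (adjusted p = 0.731 and 0.578, counting interval of the second -1.96 to -1.44) in the authors' deposited tables. CCNB1, the main partner of CDK1, had 153 and 471 reads and gave -1.10 and -1.63, and CDK1, the kinase that drives entry into mitosis, had 251 and 744 reads and gave -1.04 and -1.57 in the authors' deposited tables. The 2 B cyclins and their kinase lay at percentiles 6.8, 9.7 and 13.5 of all promoters in the second table, and at 11.3, 32.7 and 38.7 in the first. CCNA2, the cyclin of S phase and early mitosis, lay above the median of all peaks in the first table, with 152 and 422 reads and fold changes of -0.53 and -1.47 in the authors' deposited tables.

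The chromosomal passenger complex corrects faulty spindle attachments and joins AURKB with INCENP, BIRC5 and CDCA8. BIRC5, or survivin, had 187 knockout and 501 normalised control reads on chromosome 17 at 78213870 to 78214496 and gave -1.48 and -1.42 in the authors' deposited tables. After level adjustment, the other peaks within its 5 Mb stood at -0.11 and -0.30. Relative to them BIRC5 stood at -0.36 and 0.13. INCENP, the scaffold, had 224 and 560 reads and gave -1.07 and -1.32. Its first value is of a peak of 464 bp, and the second and the reads are of a peak of 1379 bp around it. AURKB, the kinase, had 67 and 212 reads on chromosome 17 at 8210224 to 8210881 and gave -0.42 and -1.67 (-2.08 to -1.26) in the authors' deposited tables, the highest value of all members in the first and among the lowest in the second. PLK1, a kinase of centrosomes and cytokinesis, had 50 and 108 reads and gave -1.20 and -1.12 (-1.62 to -0.63) in the authors' deposited tables. AURKB and PLK1 were the 2 weakest member promoters, with mean levels of 5.78 and 5.93 in the first table against 7.88 at the median promoter. Weak peaks were lowered less in general, with a median of -0.20 in the weakest decile of the first table and -0.94 in the strongest, and with that trend removed AURKB stood at 0.11 and PLK1 at -0.59 in the first table, and at -0.45 and -0.10 in the second.

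The 4 condensin genes with a promoter peak under their own symbol lay near the medians of all peaks, except SMC2 in the first table. The peak over the start of NCAPD2, annotated to MRPL51, stood at -1.34 in the first table. SMC2, the ATPase common to both condensins, had 134 knockout and 360 normalised control reads on chromosome 9 at 104093689 to 104094555 and gave -1.42 and -1.42 (-1.72 to -1.14) in the authors' deposited tables. The other peaks within the same 5 Mb had a median level-adjusted fold change of -0.74 in the first table, and SMC2 stood 0.31 above them. Fewer than 10 other peaks lay in that stretch in the second table, so the same value was not computed there. NCAPH, the kleisin of condensin I, had 134 and 326 reads and gave -0.89 and -1.28 in the authors' deposited tables. In condensin II, NCAPG2 had 309 and 653 reads on chromosome 7 at 158704604 to 158705332 and gave -0.71 and -1.08 (-1.28 to -0.88), and its kleisin NCAPH2 had 315 and 734 reads and gave -0.90 and -1.22 in the authors' deposited tables. For NCAPH2 the first value is of a peak of 336 bp, and the second and the reads are of a peak of 1143 bp around it. NCAPG2, a HEAT-repeat subunit, was the least lowered condensin gene in both tables, by 0.16 and 0.15 above the medians of all peaks, and the counting interval of the second included that median.

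Of the 5 cohesin genes with a promoter peak, STAG1, NIPBL and WAPL had strong ones, with mean levels of 9.80, 9.19 and 9.29. The median fold change of the 5 was -0.94 in the first table. It was -1.15 in the second, the highest value of the 5 roles there. SMC3, an ATPase of the ring, had 149 knockout and 304 normalised control reads on chromosome 10 at 110567302 to 110568382. It stood at -1.30 in the authors' first deposited table, the lowest of the role, and at -1.03 (-1.32 to -0.75) in the second, the highest of all members. STAG1, a subunit that binds the ring, had 446 and 1067 reads on chromosome 3 at 136752183 to 136753091 and gave -0.68 and -1.26 in the authors' deposited tables. Its relative STAG2 had 95 and 256 reads on chromosome X at 123959994 to 123960578 and gave -0.95 and -1.43 (-1.78 to -1.09) in the authors' deposited tables. NIPBL, which loads cohesin, had 474 and 1003 reads and gave -0.94 and -1.07, and WAPL, which releases it, had 375 and 832 reads and gave -0.94 and -1.15 in the authors' deposited tables. The loader and the releaser thus had the same value in the first table and counting intervals that overlapped in the second (-1.24 to -0.93 and -1.33 to -0.97).

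Genes of the centromere, spindle and cytokinesis had medians of -0.95 and -1.46 over 7 genes. CENPA, the centromeric histone H3 variant, had 237 knockout and 630 normalised control reads on chromosome 2 at 26785548 to 26786450 and gave -1.38 and -1.41 in the authors' deposited tables. Other peaks within its 5 Mb stood at -0.26 and -0.24 after level adjustment, and relative to them CENPA stood at -0.13 and 0.11. CENPE, a kinetochore motor, had 81 and 237 reads on chromosome 4 at 103197978 to 103198717 and gave -0.88 and -1.55 (-1.93 to -1.18), and CENPF, a kinetochore protein, had 145 and 405 reads and gave -0.95 and -1.48 in the authors' deposited tables. KIF11, the motor that separates spindle poles, had 229 and 501 reads on chromosome 10 at 92592685 to 92593420 and gave -0.58 and -1.13 (-1.36 to -0.90), the highest of its role in both of the authors' deposited tables. For cytokinesis, PRC1, which bundles the midzone, had 241 and 662 reads and gave -0.96 and -1.46, and ECT2, which activates RhoA, had 252 and 699 reads and gave -0.82 and -1.47 in the authors' deposited tables.

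The peak annotated to NUSAP1, a microtubule-associated protein, was not at its RefSeq start. It lies on chromosome 15 at 41283609 to 41284396, had 94 and 247 reads and gave -1.33 and -1.39 in the authors' deposited tables. The RefSeq window of NUSAP1 begins at 41332631, under a peak annotated to OIP5, which held 140 knockout and 455 normalised control reads and gave -1.08 and -1.70 (-1.98 to -1.43) in the authors' deposited tables.

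Of the 11 members without a promoter peak under their own symbol, 8 had their RefSeq window under a peak of the first table that carried the name of another gene. SMC4 lay under the peak of TRIM59-IFT80 (-0.79 and -1.30), NCAPD2 under that of MRPL51 (-1.34 and -1.38), NCAPG under that of DCAF16 (-0.98 and -1.25) and SMC1A under that of RIBC1 (-0.89 and -1.26) in the authors' deposited tables. NCAPD3, the other HEAT-repeat subunit of condensin II, lay under the peak of VPS26B on chromosome 11 at 134223782 to 134225057, with 286 and 626 reads and fold changes of -1.01 and -1.13 in the authors' deposited tables. CDCA8, or borealin, lay under the peak of C1orf109 (-1.34 and -1.42), KIF23 under that of LOC145694 (-0.87 and -1.29) and ANLN, or anillin, under that of KIAA0895 (-0.79 and -1.40) in the authors' deposited tables. BUB1B, a checkpoint kinase, had its window under no peak of the first table and under one of the second with 79 and 218 reads and, in the authors' second deposited table, a fold of -1.46 on the log2 scale. AURKA and RAD21 had neither a peak of their symbol nor a RefSeq window and have no value. With these peaks added and NUSAP1 taken at its RefSeq start, the medians were -0.96 over 39 genes and -1.42 over 40, and the condensin medians over 8 genes were -0.94 and -1.27. A peak over 2 start sites gives no value for either gene alone. Among the 26 member windows described above, 9 peaks (34.6%) covered another RefSeq start on the opposite strand, against 26.1% of 6272. They were the peaks of SMC3, STAG1, NIPBL, WAPL, BUB1, MAD2L1, CDC20, INCENP and PRC1, whose values are therefore not of the named gene alone.

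Fold changes were also set beside the letters of the promoters, as a description with no test. Among the 26 members, the 19 with homology region letters had medians of -1.07 and -1.46, and the 7 without had -0.94 and -1.43. For these letters, all genes chosen the same way had medians of -0.95 with and -0.95 without in the first table. In the second they had -1.31 and -1.26. The 21 with CCAAT had medians of -0.96 and -1.46, and the 5 without had -0.94 and -1.08, so that the medians were apart mainly in the second table. Apart from CENPE, the 5 without CCAAT were condensin and cohesin genes. These roles had the highest medians in the second table, -1.25 and -1.15, and letters and role were not separated. Over all genes chosen the same way, the medians with and without CCAAT were -0.95 and -0.96 in the first table and -1.32 and -1.22 in the second, where the value with CCAAT is lower in all genes too, by less than in the members. In the first table the lowest members include BUB1 (-1.60), with no homology region letters, and PTTG1 (-1.62), with both kinds of letters. The highest include AURKB (-0.42) and CCNA2 (-0.53), with no homology region letters, and KIF11 (-0.58), with both kinds.

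Away from the strongest promoter peaks, the 12 further peaks of the members included the least lowered sites. A distal peak assigned to WAPL, at -63596 bp from its start on chromosome 10 at 86585388 to 86585907, had 126 knockout and 156 normalised control reads. Its fold changes of 0.03 and -0.31 (-0.65 to 0.03) in the authors' deposited tables lay 0.90 and 0.92 above the medians of all peaks. The 2 other distal peaks assigned to WAPL stood at -0.29 and -0.72, and 2 assigned to NCAPH at -0.09 and -0.05, by the authors' first deposited table. None of these 4 joined a peak of the second. The distal peaks of WAPL and NCAPH were weak, with mean levels of 4.61 to 6.63 against 7.15 at the median peak. Weak peaks were lowered less in general. With the level trend removed, those of WAPL stood at 0.86, 0.54 and -0.11 in the first table. Those of NCAPH stood at 0.44 and 0.05. A distal peak 10735 bp from MAD2L1 went the other way, with 35 and 119 reads and fold changes of -1.26 and -1.76 in the authors' deposited tables. Which gene a distal peak acts on was not tested. The second promoter peak of CENPA stood at -1.64 and -1.20, that of STAG2 at -1.13 and -1.54 and that of KIF11 at -0.65 and -1.43 in the authors' deposited tables. NCAPG2 had a further promoter peak at -1.14, AURKB a distal one at -1.08 and ANLN an intronic one at -1.13 in the authors' first deposited table.

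Of 115 other genes of the pathway, 88 had a promoter peak in the first table and 80 a joined one in the second, and 0 passed the authors' test in either direction, with 1 (SPC25, p = 0.0305) and 0 at an unadjusted p under 0.05. Their medians of -0.94 and -1.31 lie close to those of all promoters, -0.93 and -1.26, and 36 (40.9%) and 70 (87.5%) were lower by at least 1, against 43.3% and 83.4%. Kinetochore genes had medians of -1.06 over 24 and -1.42 over 23 genes, the lowest of the 5 lists in both tables. SPC25, of the NDC80 complex, was the lowest of them in the first, at -2.16 and -1.53, and HJURP, the chaperone of CENPA, in the second, at -1.07 and -1.95 from 61 and 236 reads, in the authors' deposited tables. SKA1 was the highest kinetochore gene in the first, at -0.42, and MIS18A in the second, at -0.70, of the authors' deposited tables. Genes of the DREAM and MMB complexes and of mitotic entry control had medians of -0.73 and -1.20, with LIN37 at -0.25 and CDC25B at -1.44 as the extremes of the first deposited table, and E2F4 at -0.86 and CDC25A at -1.34 as those of the second.

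The remaining lists lay near the promoter medians. Subunits and partners of the anaphase-promoting complex stood at -0.93 and -1.26, and ranged from CDC16 (-1.51) to UBE2C (-0.48) in the authors' first deposited table and from CDC26 (-1.77) to CDC16 (-0.51) in the second, so that CDC16 was at opposite ends. Cohesin regulators and SMC5/6 genes had medians of -0.90 and -1.15, with NSMCE4A (-1.36) and MAU2 (-0.35) as extremes of the first deposited table and MAU2 (-1.77) and NSMCE2 (-0.85) as those of the second, where MAU2, the partner of NIPBL, was at the other end. Further spindle and cytokinesis genes had medians of -0.97 and -1.37, from KIF4A (-1.63) to SPAG5 (-0.45) in the authors' first deposited table and from KIF18B (-1.87) to TACC3 (-0.90) in the second. In the second table, other peaks within 5 Mb stood at -0.37 around CDC26 and -0.30 around KIF18B after level adjustment. Around MAU2 they stood at 0.11.

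**Figure D4:**
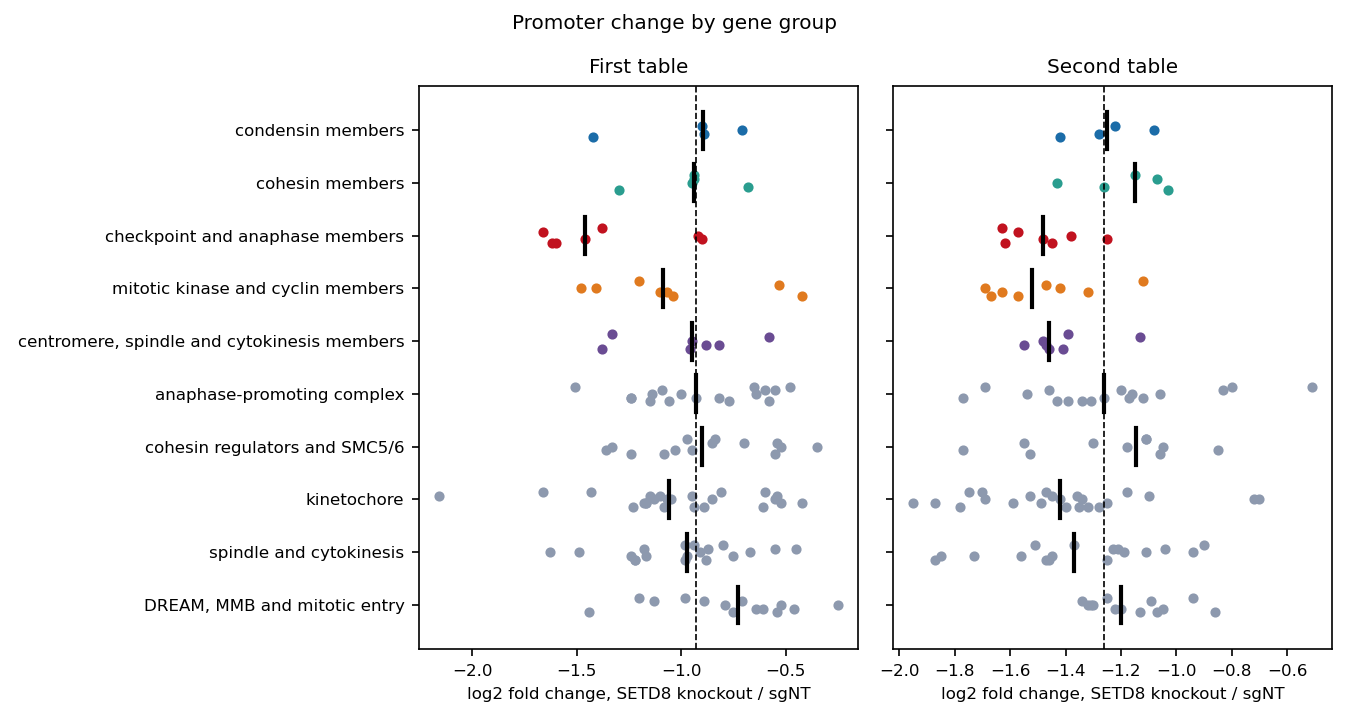
Log2 fold change (knockout over control) of the strongest promoter peak per gene for the 5 member roles (coloured) and 5 lists of other pathway genes (grey) in the first and second deposited table. Black bars are list medians and dashed lines the median of all promoters, -0.93 and -1.26. The checkpoint and anaphase median of -1.46 lies farthest left in the first table, and the mitotic kinase and cyclin median of -1.52 in the second.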

How the data were processed

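ATAC-seq peaks of 4 Kasumi-1 libraries, 2 SETD8 knockout and 2 sgNT, were read from 2 tables. Per the submitters' processing notes, MACS2 2.1.2, Bowtie2, ChIPseeker, deepTools, SAMtools and cutadapt were used with the build hg38, in an order and with settings not given in the sources used here, as are the transposase shift, duplicate removal and scaling. The log2 levels, log2 fold changes and p-values were deposited by the authors. Columns of the second table are named in its header, and those of the first by comparison with the second, from order and range. Its 2 columns of unnamed libraries were not used, and its direction is that in the deposited table's name.

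Each gene took the promoter peak (within 3 kb) with the highest mean level, and the second-table peak that overlaps it most, by at least 1 bp. Knockout reads were recovered as whole numbers from the deposited log2 levels (100% of 2294 weak values, within 0.005), and control reads as multiples of 0.918 (100% of 170). Exact intervals cover counting error only. Level adjustment subtracted the median of 20 bins of peaks by level, and the regional value is the median of the other peaks (at least 10) of a 5 Mb bin. Read counts of all 4 libraries were not used, so no count test was run and the authors' adjusted p-values are given.

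Genes named were the lowest and highest of each role and list in each table, NCAPD3, NCAPG2 and KMT5A, and the members in short. Members, lists and tests were chosen with earlier results of these data known. RefSeq sequences are of GRCh38.p14, and all 42 members matched its gene table by symbol. Alternatives covered the peak chosen, centring, level, region, fold size, overlap and thresholds. Python 3.11.15, numpy 2.4.6, pandas 2.3.3, scipy 1.17.1 and matplotlib 3.10.9 were used, and the steps were tested on simulated data.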

Additional observations from a re-analysis of the deposited data

How the results depend on the processing

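The member medians of -0.96 and -1.42 (first and second table) rest mainly on the shift shared by all peaks. Minus the median of all peaks they were -0.09 and -0.19, with the level trend removed 0.00 and -0.16, and with level and region trends removed -0.07 and -0.11. With peaks at or above the median level the first was -0.95, and with an overlap of 50% of both peaks the second was -1.43. Lower by at least 1 were 15 and 31 members. The first count was 30 at a fold of at least 0.5 and 3 at 1.5, the second 8 at 1.5, and both were 0 minus the median of all peaks. The other 19 alternatives gave the same median or a count within 1.5 times. No paired analysis was possible because values named by library were read for only 1 library of each group and the first table names no library, and leaving out replicates was not run for the same reason. With 50 to 474 knockout reads per member peak, the counting interval reached 0.26 on the log2 scale to either side at the median member, and the spread between replicates is not in it.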
